A study of Mus musculus with 9 samples.

Results

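Hspa1a, Hspa1b, Dnajb1, Hsph1, Hsp90aa1, Dnaja1, Hspa8, Hsp90ab1, Hspd1 and Hspe1 are 10 heat shock chaperone genes, taken by their symbols from the 31053 genes of each count matrix, and all 10 had counts in every library. They were measured by single-cell RNA sequencing in Lin- Sca1+ cKit+ (LSK) cells, the bone marrow fraction that holds haematopoietic stem cells (HSCs) and multipotent progenitors, from C57BL/6 mice. Young mice (10 to 12 weeks) and aged mice (over 80 weeks) received the vehicle cyclodextrin, and a second set of aged mice received CASIN, an inhibitor of the small GTPase Cdc42, in 4 intraperitoneal injections of 25 mg/kg with 24 h between them. Each group had 3 libraries, made from sorted cells that had been frozen alive and thawed. Sequencing batch 1 held young 1, young 2, aged 1, CASIN 1 and CASIN 2, and batch 2 held young 3, aged 2, aged 3 and CASIN 3. The sources used here do not say whether a library came from 1 mouse or from pooled mice, so p-values measure the spread between these libraries.

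Chaperones bind unfolded or partly folded proteins. Cells keep constitutive members at high levels at all times and raise inducible members within minutes to hours of heat, oxidation or other protein damage, through heat shock factor 1 (Hsf1), which binds inverted repeats of GAA in their promoters. In the cytosol, J proteins (Dnajb1, Dnaja1) bring clients to Hsp70 (Hspa1a, Hspa1b, Hspa8) and start its ATPase cycle, Hsph1 exchanges the nucleotide, and Hsp90 (Hsp90aa1, Hsp90ab1) takes over clients such as kinases and receptors. Hspd1 (Hsp60) and Hspe1 (Hsp10) go against the label of a cytosolic set, since their products form the folding chamber of the mitochondrial matrix. HSCs are known for a low rate of protein synthesis and a close watch on protein quality. Below, 6 genes are treated as inducible (Dnajb1, Hspa1a, Hspa1b, Hsph1, Hsp90aa1 and Dnaja1), 2 as constitutive (Hspa8 and Hsp90ab1) and 2 as mitochondrial.

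Of 32387 barcodes, 15856 were kept as cells, 1112 to 2417 per library, holding 17555578 to 35118707 unique molecular identifiers (UMIs, 1 per captured transcript). The batches differed in quality: barcodes above the limit of 10% mitochondrial UMIs made up at most 40.6% of each batch 1 library and at least 59.1% of each batch 2 library. Kit (112 to 225 CPM, counts scaled to the library's total) and Ly6a, which encodes Sca1 (87.9 to 186 CPM), were present in every library, whereas of the lineage antigens Cd8a and Ly6g did not exceed 0.0483 CPM, Cd5 stood at 0.456 to 1.36 CPM and Itgam at 3.59 to 10.8 CPM. Of the markers of other cells, 6 neutrophil genes summed to 3.08 to 28.3 CPM in batch 1 and 29.0 to 420.5 CPM in batch 2. In the same order, 8 lymphocyte genes summed to 156 to 222 CPM and 76.9 to 156 CPM. For 7 red cell genes the sums were 28.2 to 48.3 CPM and 13.3 to 26.6 CPM. For 6 stromal and endothelial genes they were 5.32 to 26.35 CPM and 1.21 to 17.4 CPM. The part of these markers in the results was not tested. Pairs of libraries shared at most 16 cell barcodes.

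Hspa1a and Hspa1b encode the stress-inducible Hsp70 in a near-identical pair of single-exon genes, Hspa1a at chr17:34969190-34972156 and Hspa1b at chr17:34956436-34959238 (GRCm38, minus strand). Their promoters are shown because both genes of the pair were higher in batch 2 in the fit given below, and that of Dnajb1 because it was lower there. Within batch 2 Dnajb1 was higher in aged than in young libraries, as the pair was. The first 3 sequences are the 150 bases before the RefSeq start on the gene's strand (GRCm38.p6), and the fourth, from the promoter that Hspe1 and Hspd1 share in opposite directions, runs from 94 to 67 bases before the start of Hspe1. Capitals mark the letters GAA and TTC where they form an inverted pair with a gap of 2 bases.
Hspa1a (chr17:34972157-34972306, minus strand): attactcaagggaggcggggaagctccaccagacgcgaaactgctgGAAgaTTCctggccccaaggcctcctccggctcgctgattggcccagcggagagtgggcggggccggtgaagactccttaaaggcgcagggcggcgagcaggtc
Hspa1b (chr17:34959239-34959388, minus strand): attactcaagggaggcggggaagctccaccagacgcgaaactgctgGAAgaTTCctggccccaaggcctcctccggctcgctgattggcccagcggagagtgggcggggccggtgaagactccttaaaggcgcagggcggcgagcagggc
Dnajb1 (chr8:83608025-83608174, plus strand): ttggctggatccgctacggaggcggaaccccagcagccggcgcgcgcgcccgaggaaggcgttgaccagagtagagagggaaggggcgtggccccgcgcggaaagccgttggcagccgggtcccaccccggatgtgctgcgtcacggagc
Hspe1 (chr1:55088054-55088081, plus strand): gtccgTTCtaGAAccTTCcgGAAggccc

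Hspa1a and Hspa1b differed at 1 of these 150 bases, and both carried GAANNTTC, 104 bases before the start. Windows from 250 bases before to 50 after the start were searched for GAANNTTC and TTCNNGAA, each of which reads the same on both strands, and for triples, in which another GAA or TTC unit follows such a pair with the same gap and so overlaps it. RefSeq gave 12 windows for 7 of the 10 genes: a pair was found for 6 of these genes, all but Dnajb1, and a triple for 3, Hspe1, Hspd1 and Hsph1. Of 32851 such windows of all genes, 15.1% held a pair and 0.603% a triple. These shares are per window, while the members were counted per gene, in any of its windows, so they are not alike. Nor are the hits separate, since Hspe1 and Hspd1 share their triples and Hspa1a and Hspa1b are near-identical. These are matches of letters in a fixed window, not measured binding sites, and their part in the levels below was not tested.

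The inducible pair Hspa1a and Hspa1b was scarce. The level of Hspa1a followed the batch more than the age, while that of Hspa1b overlapped between the batches. Hspa1a stood at 2.90, 1.52 and 5.99 CPM in young 1, 2 and 3, at 0.544, 25.5 and 21.9 CPM in aged 1, 2 and 3, and at 1.03, 1.16 and 9.86 CPM in CASIN 1, 2 and 3. The 4 libraries of batch 2 lay above all 5 of batch 1, and within batch 2 both aged libraries lay above young 3 and CASIN 3. Hspa1b gave 3.53, 1.91 and 2.82 CPM in young, 0.926, 8.84 and 13.0 CPM in aged, and 0.797, 0.754 and 3.42 CPM in CASIN libraries. Its highest values were again aged 2 and aged 3, while aged 1 was among the lowest. Young 1 of batch 1 lay above young 3 and CASIN 3 of batch 2. These levels rest on 10 to 566 UMIs of Hspa1a and 14 to 269 of Hspa1b per library.

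Dnajb1 (ENSMUSG00000005483, chr8:83608193-83612653), the J protein that is induced together with Hsp70 on heat shock, behaved differently. It stood at 127, 135 and 48.3 CPM in young 1, 2 and 3, at 204, 122 and 86.4 CPM in aged 1, 2 and 3, and at 167, 157 and 69.2 CPM in CASIN 1, 2 and 3. Here all 5 libraries of batch 1 lay above all 4 of batch 2. Within each batch the aged libraries were the highest and the young libraries the lowest, with no overlap between young and aged. Batch 1 held 1 aged library and batch 2 held 1 young library. The share of all genes in this order was not counted. The group means overlapped widely without regard to batch, at 104 ± 48.1 CPM in young, 138 ± 60.4 in aged and 131 ± 53.8 in CASIN libraries (SD, n = 3).

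Hsph1, the Hsp110 that exchanges nucleotide on Hsp70, read 48.1, 25.8 and 11.7 CPM in young, 14.5, 27.7 and 29.0 CPM in aged and 16.3, 10.8 and 12.5 CPM in CASIN libraries. Young 1 was the highest library and young 3 among the lowest, so the groups overlapped. Hsp90aa1, the inducible Hsp90, read 972, 753 and 738 CPM in young, 648, 1024 and 1132 CPM in aged and 730.4, 519 and 835 CPM in CASIN libraries. Dnaja1, a J protein that also serves Hspa8, read 647, 480.1 and 364 CPM in young, 326, 377 and 444 CPM in aged and 343, 294 and 342 CPM in CASIN libraries. For Dnaja1 every CASIN library lay below every young library, and the aged libraries lay between or overlapped with both. The share of all genes with such a gap was not counted.

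The constitutive Hspa8 (Hsc70, the housekeeping Hsp70) read 2454.5, 1966 and 1239 CPM in young, 1330.5, 1929.7 and 1711 CPM in aged and 1442, 1298 and 1099 CPM in CASIN libraries. Its count is uncertain, since 83.8% of the 90-base windows in the last 600 bases of its transcript also occur in other annotated genes, for the most part in Gm15459. Hsp90ab1, the housekeeping Hsp90, read 2710.0, 2369.9 and 2945 CPM in young, 2083, 2866 and 3013 CPM in aged and 2324, 1984 and 2606 CPM in CASIN libraries. The groups overlapped for both genes, although Hspa8 in CASIN 3 and Hsp90ab1 in aged 1, CASIN 1 and CASIN 2 lay below every young library.

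Of the mitochondrial pair, Hspd1 read 432, 323 and 243 CPM in young, 279, 278 and 296 CPM in aged and 311, 228 and 212 CPM in CASIN libraries. Hspe1 read 604, 510.2 and 349 CPM in young, 433, 365 and 421 CPM in aged and 469.5, 413 and 315 CPM in CASIN libraries. In both genes young 1 was the highest of the 9 libraries and CASIN 3 the lowest.

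**Figure D1:**
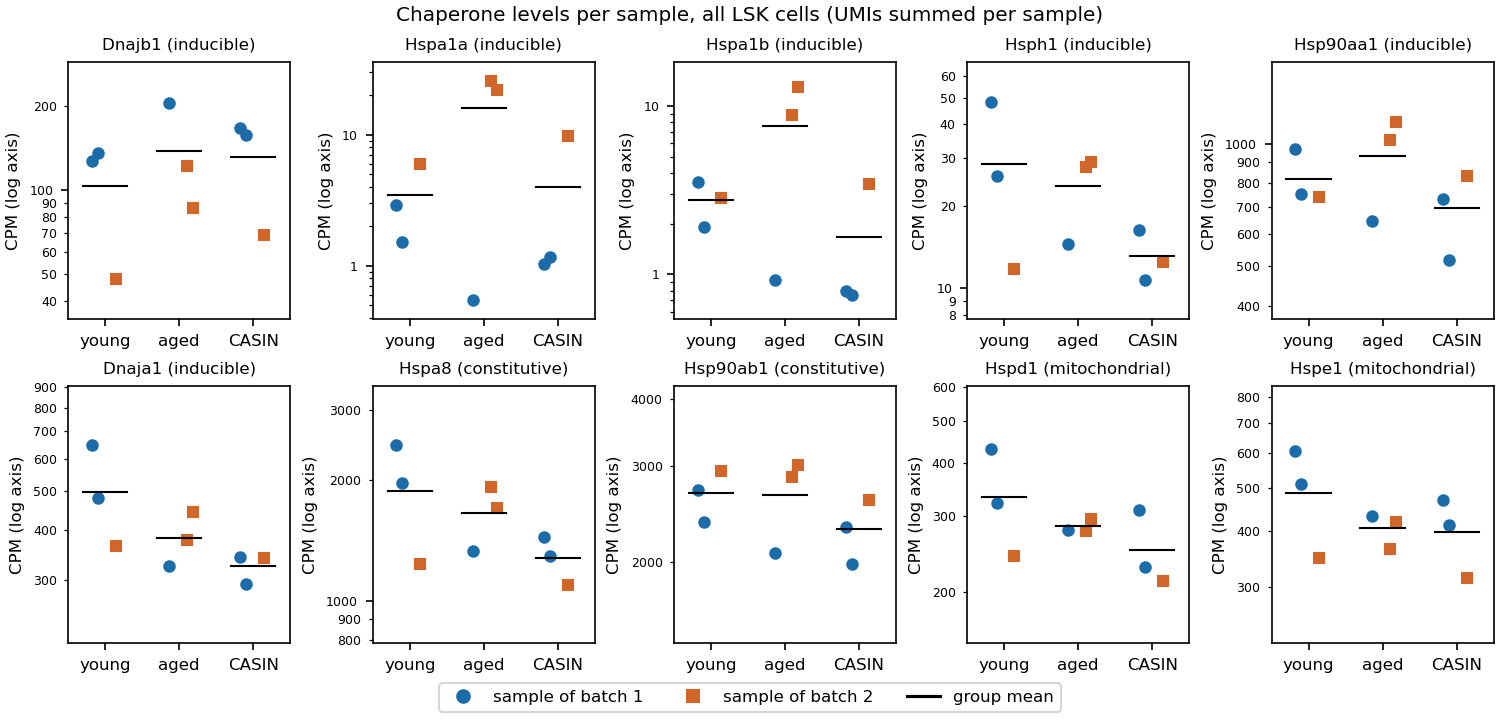
Level of each gene (CPM, log axis) in the summed cells of each library, by group; circles are batch 1, squares batch 2 and bars the group means. Hspa1a and Hspa1b reach their highest values in the 2 aged libraries of batch 2, whereas Dnajb1 is lower in batch 2 than in batch 1 in every group and higher in aged than in young libraries within each batch.

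Members differed between the batches in both directions, as most genes did. In edgeR's quasi-likelihood test with group and batch as terms and Benjamini-Hochberg adjustment over all genes tested, 6 of the 10 passed an adjusted p of 0.05 between batch 2 and batch 1, against 71.8% of all genes, and with a replicate block 2 passed, Dnajb1 and Hspa1a. Hspa1a was 7.76-fold higher in batch 2 (log2 fold change 2.96 ± 0.53, SE, adjusted p = 0.000753) and Hspa1b 3.36-fold higher (1.75 ± 0.55, adjusted p = 0.0165), with a small rise of Hsp90ab1 (0.26 ± 0.08). These folds average over the groups, and Hspa1b in young 1 lay above young 3 and CASIN 3 of batch 2. Dnajb1 was 2.43-fold lower in batch 2 (-1.28 ± 0.13, adjusted p = 1.42e-05), and Hspe1 (-0.50 ± 0.11) and Hspd1 (-0.38 ± 0.15) were lower too. In the same libraries the immediate early transcription factor Fos stood at 1296 to 2615 CPM in batch 1 and at 17.7 to 134.5 CPM in batch 2, and Bag3, an Hsp70 co-chaperone that Hsf1 induces, stood at 3.39 to 5.55 CPM in batch 1 and 17.1 to 24.5 CPM in batch 2. Neither gene stands for its list. The 22 immediate early genes summed to 9299.7 to 14717 CPM in batch 1 and 6402 to 10232 CPM in batch 2, and Atf3 among them was higher in batch 2 (2.06). Of 75 other chaperone and co-chaperone genes tested, 26 were higher in batch 2 and 26 lower.

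Whether chaperones change with age was asked first over all LSK cells. Dnajb1 was higher in aged than in young libraries by 1.84-fold (log2 fold change 0.88 ± 0.15, adjusted p = 0.0181, edgeR's quasi-likelihood test), and it was the only 1 of the 10 members that passed, against 4.10% of all 13642 genes tested. The other 9 estimates ran from -0.34 (Dnaja1) to 0.56 (Hspa1a), with adjusted p-values of 0.367 or more. Dnajb1 missed the threshold without young 1 (0.89, adjusted p = 0.0735), without young 2 (0.95, adjusted p = 0.0631), with only the groups compared (0.89, adjusted p = 0.0753) and without the batch term (0.39, adjusted p = 0.835), and without young 3 Dnaja1 was called as well (lower). A sum over LSK cells cannot tell a change per cell from a change in the mix of cells: HSC-1-like cells, defined below, were 414 of 2151 cells in young 1, 300 of 2203 in young 2 and 671 of 1561 in aged 1, and in batch 2 230 of 1201 in young 3, 405 of 1679 in aged 2 and 382 of 1740 in aged 3.

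Beside Dnajb1, the immediate early genes, transcription factors and regulators that are switched on within minutes of a stimulus, moved in the same direction. Of 22 listed, 11 were higher in aged libraries and 0 lower, led by Nr4a2 (2.27), Nr4a1 (1.78) and Fosb (1.71 on the log2 scale). Their part in the difference of Dnajb1 was not tested. Of 79 other chaperone and co-chaperone genes, 75 were tested between aged and young LSK cells, and 0 passed in edgeR's quasi-likelihood test.

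Some members gave different answers in the 2 batches. In a fit with a group by batch term, added after the data were seen, 5 members passed in batch 1 against 14.0% of all genes. Dnajb1 was higher in aged 1 than in young 1 and 2 (0.64 ± 0.18, adjusted p = 0.0482), whereas Hspa1a (-2.01 ± 0.51), Hsph1 (-1.34 ± 0.36), Dnaja1 (-0.78 ± 0.18) and Hspa8 (-0.72 ± 0.15) were lower. Of the 10 estimates in batch 1, 9 were below 0. In batch 2 all 10 were above 0, and 1 passed, against 0.652% of all genes: Hspa1a was 4.01-fold higher in aged 2 and 3 than in young 3 (2.00 ± 0.32, adjusted p = 0.0407). Dnajb1 there was 2.19-fold higher with an adjusted p of 0.0526. The median estimate over all genes was 0.0016 in batch 1 and 0.025 in batch 2. Several members are correlated (r of 0.818 for Hspd1 and Hspe1, given below), so the signs of the 10 estimates are not separate results. Each batch rests on 1 library on one side, aged 1 in batch 1 and young 3 in batch 2, which is assumed to vary like the others. Of Hspa1a, aged 1 held 10 UMIs, and young 3 held 106, of which 86.8% lay in 10 cells. These values are over all LSK cells. In HSC-1-like cells, defined below, Hspa1a in young 3 lay between its levels in aged 2 and aged 3.

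The difference between the batches was itself tested, and 4 members passed, against 3.09% of all genes. Aged over young was more positive in batch 2 than in batch 1 by 4.02 ± 0.59 for Hspa1a (log2, adjusted p = 0.0153), 3.51 ± 0.64 for Hspa1b (adjusted p = 0.0291), 2.63 ± 0.51 for Hsph1 (adjusted p = 0.0355) and 1.30 ± 0.21 for Hspa8 (adjusted p = 0.021). For Dnajb1 the difference was 0.49 ± 0.27 with an adjusted p of 0.367. Hspa1b missed the threshold without young 1 (adjusted p = 0.0609) and Hsph1 without aged 2 (adjusted p = 0.0583), while Dnajb1 passed without aged 3 (0.73, adjusted p = 0.0423) and Hsp90aa1 without CASIN 2 (0.98, adjusted p = 0.0426).

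**Figure D2:**
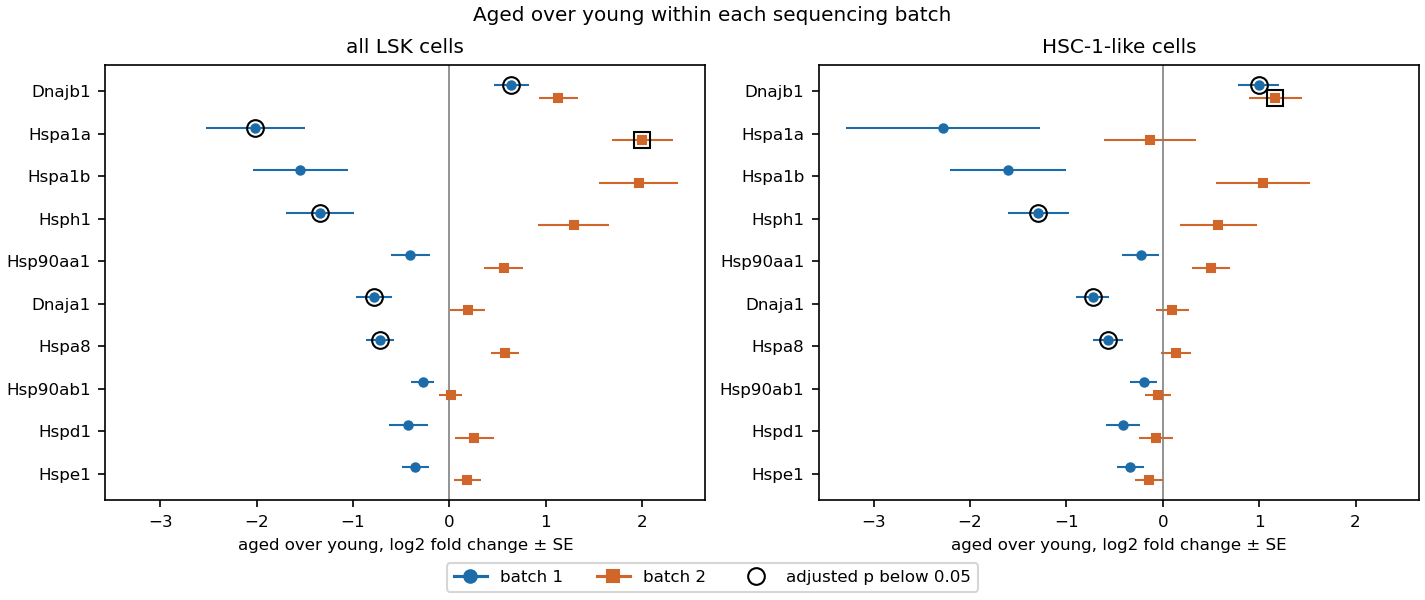
Log2 fold change of aged over young (± SE, from the group by batch fit) for each gene within batch 1 (circles) and batch 2 (squares), over all LSK cells on the left and HSC-1-like cells on the right; outlined points have an adjusted p below 0.05. Dnajb1 lies above 0 in both batches and both populations, while Hspa1a over all LSK cells lies at -2.01 in batch 1 and at 2.00 in batch 2. These 2 values of Hspa1a rest on 10 UMIs in aged 1 and 106 in young 3.

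The Hspa1a and Hspa1b transcripts were held by few cells. Cells with 5 or more UMIs of the pair numbered 1 of 8819 in batch 1 and 82 of 7037 in batch 2, and these 82 held 65.4% of the 2009 Hspa1a and Hspa1b UMIs of batch 2. By library they were 1.91% of cells in aged 2 (exact 95% binomial interval 1.31% to 2.68%), 1.72% in aged 3 (1.17% to 2.45%), 0.662% in CASIN 3 (0.379% to 1.07%) and 0.333% in young 3 (0.0908% to 0.851%). The intervals treat cells as the unit and cover counting error only, so they do not measure the spread between libraries or groups. Batch 2 held 1 young and 1 CASIN library. With every cell thinned to 4000 UMIs, cells with 2 or more UMIs of the pair were 5 of 8682 in batch 1 and 78 of 6842 in batch 2.

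These cells were deeper than the rest of batch 2, with a median of 18482 against 10831 UMIs, which a choice by raw UMIs favours, and their median mitochondrial share was lower, 4.24% against 6.09%. They fell unevenly over the subsets defined below, whose cells in all 9 libraries stand in brackets. There were 22 among LMPP-like cells (3398), 13 among HSC-1-like cells (4150) and 7 among CC-2-like cycling cells (274). The small Ebf1-Cd79a cluster (116) held 11 and the small Elane-Camp cluster (81) held 5. In the Ebf1-Cd79a cluster they were 8 of 18 cells in aged 2, 3 of 17 in aged 3, 0 of 7 in young 3 and 0 of 9 in CASIN 3. In the Elane-Camp cluster they were 2 of 9 cells in aged 2, 1 of 7 in aged 3, 1 of 4 in young 3 and 1 of 6 in CASIN 3. LMPP-like cells held 6 of 374 in aged 2, 8 of 376 in aged 3, 0 of 274 in young 3 and 8 of 344 in CASIN 3. Among HSC-1-like cells they were 4 of 405 in aged 2, 6 of 382 in aged 3, 3 of 230 in young 3 and 0 of 842 in CASIN 3. Other members were also higher in all 82 rich cells together than in the other cells of batch 2, given here as a description since the cells were picked on the pair: Dnajb1 stood at 205 against 80.1 CPM, Hsph1 at 75.4 against 19.0 CPM and Hspa8 at 3496 against 1442 CPM. Jun, a subunit of the AP-1 transcription factor, stood at 1167 against 223 CPM, while Bag3 hardly differed, at 23.4 against 21.4 CPM. Of the 82, 5 were among the cells with the highest doublet scores.

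Leaving these cells out kept Hspa1a, Hspa1b, Hspa8 and Hsph1 past the threshold for the difference between batches (4.45 for Hspa1a and 4.74 for Hspa1b), while between batch 2 and batch 1 Hspa1a fell to 1.11 and Hspa1b to 0.50 on the log2 scale, neither called. Since the cells were picked on the pair and all but 1 were in batch 2, leaving them out lowers these folds by construction. The other members were spread more evenly over cells. After thinning, the variance of UMIs over cells divided by their mean reached 5.78 to 11.5 for Hspa1a in the libraries of batch 2 and at most 2.24 in batch 1, and for the other members except Hspa1b it was at most 3.56 in any library.

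**Figure D3:**
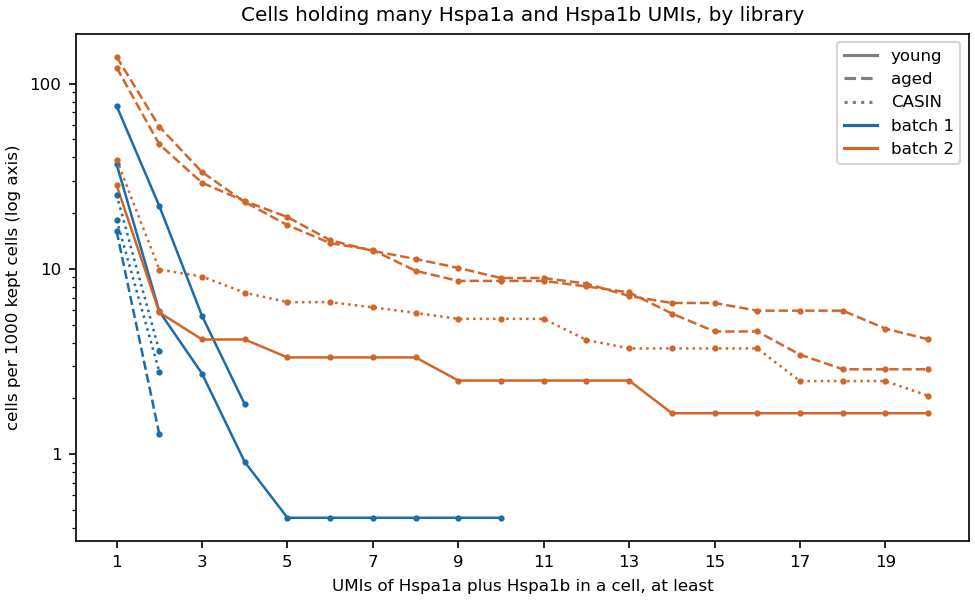
Kept cells per 1000 (log axis) holding at least the given number of Hspa1a plus Hspa1b UMIs, 1 line per library; colour marks the batch and line style the group, and a line ends where no cell is left. At 5 or more UMIs, 1 cell remains in all of batch 1 (young 2), and the 2 aged libraries of batch 2 lie above CASIN 3 and young 3.

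LSK subsets were rebuilt by clustering with the members left out of the features, and named by fixed markers. HSC-1-like cells (4150, led by Ramp2, Sult1a1 and Nupr1) stood for a subset of HSCs, LMPP-like cells (3398, led by Wfdc17, Ccl3 and Dntt) for lymphoid-primed progenitors and CC-1-like cells (1081) for cycling cells. In this clustering HSC-1-like cells were not separated from the HSC-2-like cells described below, which are marked by immediate early genes. A cluster led by Pclaf and Rrm2, genes of DNA replication, was left unnamed (507 cells). Levels between subsets are a description.

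Most members were higher in progenitors and cycling cells than in HSC-1-like cells of the same library, while Dnajb1 depended on the batch. Hsp90aa1, Dnaja1, Hspa8, Hsp90ab1, Hspd1 and Hspe1 were higher in LMPP-like than in HSC-1-like cells in 9 of 9 libraries, with median ratios of 1.22, 1.23, 1.56, 1.22, 1.51 and 1.51. The same 6 were higher in CC-1-like cells in 9 of 9 libraries, and with Hsph1 they were 7 in the Pclaf-Rrm2 cluster, where the median ratio was 2.14 for Hspd1 and 1.93 for Hspe1. In the cluster led by Cxcl12 and Ibsp only 2 members were higher in 9 of 9 libraries, and Hspe1 was lower in 7. The cluster led by Hist1h2bc and Hist1h1c also had 2 at 9 of 9. The share of all genes at 9 of 9 was not counted, so these counts alone do not set the members apart. Dnajb1 was lower in LMPP-like than in HSC-1-like cells in 8 of 9 libraries (median ratio 0.856), in the Ctla2a-Rgs1 cluster, the second largest, in 9 of 9 (0.799), and in HSC-3-like cells, which express MHC class II genes, in 9 of 9 (0.745). In CC-1-like cells and in the Pclaf-Rrm2 cluster it was higher than in HSC-1-like cells in 4 of 9 libraries, all 4 of batch 2, and lower in the 5 of batch 1 (median ratios 0.829 and 0.812). With cells thinned to 4000 UMIs, Hsp90aa1 was higher in LMPP-like than in HSC-1-like cells in 7 of 9 libraries. Dnaja1, Hspa8, Hsp90ab1, Hspd1 and Hspe1 stayed at 9 of 9. Dnajb1 was then lower in HSC-3-like cells in 8 of 9 libraries. It was higher in CC-1-like cells in 3 of 9 libraries and in the Pclaf-Rrm2 cluster in 3 of 9.

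The order of the subsets was clear for few neighbours. For Hspa8 in batch 1 the Pclaf-Rrm2 cluster came first (mean 2144 CPM, range 1613 to 2950 over 5 libraries) and HSC-1-like cells last (1321 CPM, 958 to 1953), with overlapping ranges at each step. In batch 2 Hsp90ab1 ran from 3579 CPM in the Pclaf-Rrm2 cluster (3345 to 3953), above the 3278 CPM of CC-1-like cells (3220 to 3315), down to 2203 CPM in HSC-1-like cells (1909 to 2428). Dnajb1 in batch 1 was highest in HSC-1-like cells (217 CPM, 143 to 303) and lowest in the Pclaf-Rrm2 cluster (107 CPM, 94.8 to 116), whose range lay below, whereas in batch 2 it was highest in CC-1-like cells (109 CPM, 59.2 to 152) with overlap throughout. A finer clustering separated HSC-2-like cells, marked by immediate early genes such as Fos and Jun (935 cells, 20 to 206 per library). Dnajb1 there stood at 108.5, 283, 199 and 197 CPM in young 3, aged 2, aged 3 and CASIN 3, above the 47.6, 125, 77.3 and 73.6 CPM of HSC-1-like cells, with which they share cells. In batch 1 both were close, at 166, 216, 291, 244 and 226 CPM in HSC-2-like and 143, 178, 303, 248 and 215 CPM in HSC-1-like cells of young 1, young 2, aged 1, CASIN 1 and CASIN 2.

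**Figure D4:**
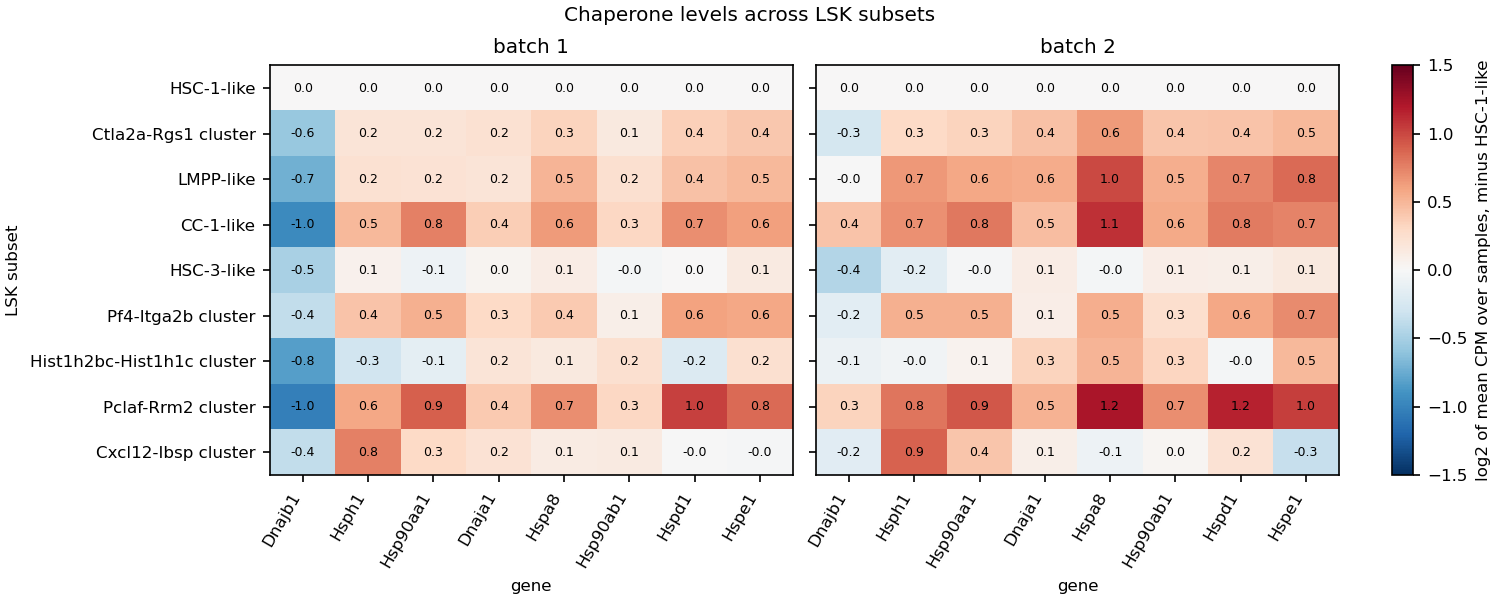
Log2 of the mean CPM over the libraries of a batch in each LSK subset, minus the value in HSC-1-like cells, for 8 genes; Hspa1a and Hspa1b are left out because they held few UMIs per subset. Hspa8, Hspd1 and Hspe1 are higher in LMPP-like, CC-1-like and Pclaf-Rrm2 cells in both batches, while Dnajb1 is lower than in HSC-1-like cells in every other subset of batch 1.

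Over 81 sums (9 subsets in 9 libraries, batch means removed), Dnajb1 followed genes other than the rest of the set. Among 9691 genes the most alike were Csrnp1 (Pearson's r 0.795), Jund (0.767), Nr4a1 (0.756), Sertad1 (0.743) and Fosb (0.742). Its r with the 8 other members above the level minimum ran from -0.133 to 0.378. Hspa8 was most like Fkbp4 (0.901), a co-chaperone of Hsp90, then Idh2, Stip1, Cdca7l and Cct3 (0.843 or more), and Hspd1 most like Sdf2l1 (0.921), then Mcm6, Mcm5, Mcm3 and G3bp1 (0.891 or more). Hspd1 and Hspe1 had an r of 0.818 with each other. For Hspa1a the highest r was 0.538, with Dusp1. The points share libraries and depth, so these values are a description.

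In HSC-1-like cells the age difference of Dnajb1 was 2.08-fold. Dnajb1 read 143, 178 and 47.6 CPM in young, 303, 125 and 77.3 CPM in aged and 248, 215 and 73.6 CPM in CASIN libraries, so aged exceeded young libraries within each batch. The share of all genes that do so was not counted. On the log2 scale the age difference was 1.06 ± 0.17 (adjusted p = 0.00239, edgeR's quasi-likelihood test), and the other 9 members did not pass, against 8.30% of 11738 genes. It was lost without the batch term (0.50, adjusted p = 0.831), and without young 3 Dnaja1 and Hsph1 were called too, both lower. Within batch 1 Dnajb1 was higher in aged cells (0.99 ± 0.22) and Hsph1 (-1.29 ± 0.32), Dnaja1 (-0.72 ± 0.17) and Hspa8 (-0.57 ± 0.16) were lower, against 10.9% of all genes. Within batch 2 Dnajb1 alone passed (1.17 ± 0.28, adjusted p = 0.0499), against 1.62%. Hspa1a in batch 2 stood at 22.9 CPM in young 3, between the 10.2 and 30.1 CPM of aged 2 and aged 3. Beside Dnajb1, 14 of the 22 immediate early genes were higher in aged HSC-1-like cells and 0 lower, among them Nr4a2 (2.19), Nr4a1 (1.58) and Btg2 (1.49). HSC-1-like cells share cells with the HSC-2-like subset, which numbered 187 in young 1, 134 in young 2 and 206 in aged 1. In batch 2 it numbered 20 in young 3, 34 in aged 2 and 46 in aged 3. Whether Dnajb1 changed per cell or with this mix of cells was not tested.

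LMPP-like cells gave no call for aged over young. Dnajb1 read 128, 145 and 45.1 CPM in young, 132, 125 and 88.5 CPM in aged and 122, 133 and 63.0 CPM in CASIN libraries, and in batch 1 the aged library lay between the young ones. The fold change was 0.62 ± 0.23 on the log2 scale (adjusted p = 0.392, edgeR's quasi-likelihood test), and 0 of 10 members passed, against 0.198% of genes. At an unadjusted p under 0.05, 1 member passed, Dnajb1, against 1075 of 11122 genes, and in DESeq2 its adjusted p was 0.326. Within batches its change was close to 0 in batch 1 (-0.0011 ± 0.22) and 1.29 ± 0.24 in batch 2, where its adjusted p was 0.0541.

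The difference of the age effect between HSC-1-like and LMPP-like cells was tested with each library as its own block. Hspa8 (-0.41 ± 0.09, adjusted p = 0.0156), Hspe1 (-0.37 ± 0.09, adjusted p = 0.0275) and Hspd1 (-0.32 ± 0.09, adjusted p = 0.0441) had a more negative aged over young change in HSC-1-like cells, against 2.92% of 12207 genes. For Hspa8 the estimates were -0.22 ± 0.15 in HSC-1-like and 0.20 ± 0.22 in LMPP-like cells, neither past the threshold. Dnajb1 differed by 0.56 ± 0.17 in the other direction, with an adjusted p of 0.0827. Without aged 3 the calls were Hspa8 and Dnajb1 (0.66), and without CASIN 3 Hspa8, Hspe1 and Hspa1a (-2.41). None of the 3 genes was called without aged 2, with cells thinned to 4000 UMIs or with DESeq2, Hspa8 alone was called without young 2, and without young 3 the calls were Dnajb1 (0.79) and Hspa1a (4.03), both more positive in HSC-1-like cells.

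The effect of CASIN was asked against aged mice that received the vehicle. Over all LSK cells 0 of 10 members passed, against 0% of 13642 genes (edgeR's quasi-likelihood test), with 439 genes and 2 members, Dnajb1 and Hspa1b, at an unadjusted p under 0.05. DESeq2 also called 0 genes, with 375 at an unadjusted p under 0.05, 3 of them members. All 10 estimates in edgeR were below 0, from -0.11 ± 0.09 for Hsp90ab1 and -0.53 ± 0.15 for Dnajb1 to -1.54 ± 0.62 for Hspa1b. The median over all genes was -0.011, and several members are correlated, so these signs are not separate results. In HSC-1-like cells 0 members passed, against 0% of genes (360 genes at an unadjusted p under 0.05 and 173 with DESeq2, which called 0), and in LMPP-like cells 0, against 0% (611 and 276 genes). Within batch 2, in HSC-1-like cells, Hspa1a read 30.1 and 10.2 CPM in aged 3 and aged 2 and 1.69 CPM in CASIN 3, and Hspa1b 13.6, 7.31 and 0.91 CPM. Hspa1a (-3.50, adjusted p = 0.0348) and Hspa1b (-3.43, adjusted p = 0.0159) were lower in CASIN 3, against 0.256% of genes, which rests on 1 CASIN library, and with the cells rich in the pair left out the values were -1.71 (adjusted p = 0.388) and -2.52 (adjusted p = 0.0986). In batch 1 Hspa1a did not go this way, at 0.56 CPM in aged 1 and 0.80 and 2.14 CPM in CASIN 1 and 2. In LMPP-like cells of batch 2 Hspa1a was higher in CASIN 3 (33.4 CPM) than in aged 2 and aged 3 (16.6 and 25.3 CPM).

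CASIN was also set against young, a comparison that shares its young libraries with aged over young. Over all LSK cells 0 of 10 members passed, against 4.27% of genes (edgeR's quasi-likelihood test). At an unadjusted p under 0.05 there were 7 members, against 3273 of 13642 genes. DESeq2 called 1 member, Dnaja1, against 1269 of 13642 genes. Of the estimates in edgeR's quasi-likelihood test, 9 were below 0 and Dnajb1 was above it (0.35 ± 0.14, adjusted p = 0.169). The median over all genes was -0.0024, and here too the signs are not separate results. Within batch 1 Dnaja1 (-0.85 ± 0.15), Hspa8 (-0.71 ± 0.12), Hsph1 (-1.48 ± 0.28) and Hspa1b (-1.83 ± 0.39) were lower in CASIN libraries, against 10.2% of genes, and within batch 2, on 1 library a side, 0 passed, against 0.924%.

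HSC-1-like cells from CASIN mice differed from young ones in 7 of 10 members, against 14.4% of all genes, and the count fell to 3 at a mitochondrial limit of 5%, to 4 with a replicate block and to 0 without the batch term. Over 23 settings Dnaja1 and Hspa8 were called in 19, Dnajb1 in 18, Hspd1 in 17, Hsph1 in 14, Hspe1 in 12 and Hspa1a in 9. Dnajb1 was 1.53-fold higher (0.61 ± 0.16, adjusted p = 0.0214), and 6 members were lower, against 5.79% of genes called lower. The inducible Dnaja1 read 569, 416 and 309 CPM in young and 294, 255 and 252 CPM in CASIN libraries (-0.62 ± 0.16), the constitutive Hspa8 1953, 1492 and 941 against 1102, 958 and 694 CPM (-0.59 ± 0.14), and Hsph1 40.0, 21.5 and 12.7 against 15.2, 9.92 and 10.1 CPM (-1.06 ± 0.32). The mitochondrial Hspd1 read 349.6, 262 and 205 CPM in young and 229, 180.4 and 157 CPM in CASIN libraries (-0.46 ± 0.12), and Hspe1 473, 415.5 and 278 against 348, 313 and 229.9 CPM (-0.32 ± 0.09). Dnaja1 alone of these 5 had all young libraries above all CASIN libraries, while for the others young 3 lay below CASIN 1, and for Hspa8 and Hspe1 below CASIN 2 as well. The share of all genes without such overlap was not counted.

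The sixth, Hspa1a, read 3.60, 2.06 and 22.9 CPM in young and 0.80, 2.14 and 1.69 CPM in CASIN libraries (-2.45 ± 0.77, with an adjusted p just under the threshold). Without the cells rich in the pair it was -0.76 with an adjusted p of 0.516. The housekeeping Hsp90ab1 (-0.22 ± 0.09), Hsp90aa1 (-0.18 ± 0.17) and Hspa1b (-1.93 ± 0.65) did not pass. Calls were concentrated in batch 1, where Dnaja1, Hspa8, Hspd1, Hspe1 and Hsph1 passed against 14.3% of genes, while in batch 2 Hspa1a alone passed (-3.63), against 3.32%. That value sets 61 UMIs of young 3 against 13 of CASIN 3, 1 library a side, and over all LSK cells of young 3 the 10 cells richest in Hspa1a held 86.8% of its UMIs. Without young 1, 0 members passed in edgeR's quasi-likelihood test, with the lowest adjusted p at 0.0567 for Hspa8, while 4 passed without young 2 and 2 without each of CASIN 1, CASIN 2 and CASIN 3. In LMPP-like cells 0 members passed, against 0.0809% of genes. At an unadjusted p under 0.05 there were 2 members (Dnaja1 and Hsph1), against 708 of 11122 genes.

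Of 74 other chaperone genes tested in the same HSC-1-like comparison, 8 were lower in CASIN than in young libraries and 1 higher. Both directions together were near the 14.4% of all genes called, while 5.79% of all genes were called lower. The 1 that was higher was the small heat shock protein Hspb1 (1.39 ± 0.40). Among 14 Hsp90 co-chaperones 5 were lower, led by Ahsa2 (-0.65), Cacybp (-0.61) and Fkbp4 (-0.57), and of 14 other J proteins Dnajc9 (-0.51) and Dnajc2 (-0.39), as was the cytosolic chaperonin subunit Cct2 (-0.27). Of the immediate early genes, 11 of 22 were higher in CASIN than in young libraries, among them Nr4a2 (1.76). For aged over young in HSC-1-like cells, few of these 74 genes were called, against 8.30% of all genes. Bag3 (0.78 ± 0.22) was the 1 that was higher, and the 2 that were lower were Cacybp (-0.49 ± 0.11) and Cct2 (-0.31 ± 0.09).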

How the data were processed

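Sorted LSK cells of 9 libraries (3 young, 3 aged, 3 aged with CASIN) were profiled with 10x 3' chemistry. The authors aligned reads to mm10 with Cell Ranger, version 3.1.0 per the submitters' processing notes, and deposited raw UMI counts per gene and barcode, 31053 genes by 32387 barcodes, without normalization. Kept barcodes had 1000 to 40000 UMIs, at most 6000 genes, at most 10% mitochondrial UMIs and a residual of at most 0.4 in the relation of genes to UMIs, and genes were kept in 3 or more cells (19517). Cells were clustered in Seurat 5.3.0 (3000 features, 30 dimensions for integration, 35 principal components, resolution 0.4) with 16 chaperone genes, 9 of them members, left out of the features. Scrublet (scanpy 1.11.5) marked 67 doublets (0.423%), too few to count as a working call, so doublets were kept and the 5% highest scores were left out as an alternative.

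UMI counts were summed per library over all LSK cells, HSC-1-like cells and LMPP-like cells. The sums were tested with edgeR 4.0.16 (quasi-likelihood, TMM, filterByExpr) on all 9 libraries with group and batch as terms, Benjamini-Hochberg adjustment over all genes and a threshold of 0.05. A group by batch fit was added after the data were seen. DESeq2 1.42.0 was an alternative. The standard error was the log2 fold change divided by the root of F. The fit with group and batch as terms was also run on simulated counts. These had changes in aged libraries only and the same batch shift in every group. The group by batch fit, the test between subsets and DESeq2 were not run on simulated counts. Depth was 17555578 to 35118707 UMIs per library over kept cells, which limits the pair Hspa1a and Hspa1b most. The members and the gene lists were chosen with earlier results of these data known. Named genes are the members, up to 3 genes per chaperone or immediate early list and comparison with the largest change among those past the threshold, and the 5 genes with the highest Pearson's r to Dnajb1, Hspa1a, Hspa8 and Hspd1. Levels of Fos, Jun and Bag3 by batch or cell were chosen after their values were seen. Promoters came from RefSeq (GRCm38.p6) and gene positions from GRCm38.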

Additional observations from a re-analysis of the deposited data

Results flagged for a closer look

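The change of aged over young differed by batch, in the test of the difference itself, for Hspa1a (4.02 on the log2 scale, batch 2 minus batch 1), Hspa1b (3.51), Hsph1 (2.63) and Hspa8 (1.30). In batch 1 the aged side was aged 1 alone, with 10 UMIs of Hspa1a and 17 of Hspa1b. It differed between HSC-1-like and LMPP-like cells for Hspa8 (-0.41), Hspe1 (-0.37) and Hspd1 (-0.32), more negative in HSC-1-like cells. The mitochondrial share of UMIs and the level of Fos also differed between the batches, and their part in these differences was not tested.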

How the results depend on the processing

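Counts of members called (edgeR's quasi-likelihood test unless named) changed as follows. For aged over young in all LSK cells, 1 became 0 without the batch term and 0 with only the groups compared, and leaving out 1 library gave 0 to 2. In HSC-1-like cells 1 became 0 without the batch term, and leaving out 1 library gave 1 to 3. For CASIN over young in all LSK cells, 0 became 1 with DESeq2, 1 with no low-count filter and 2 with only the groups compared, and leaving out 1 library gave 0 to 4. In HSC-1-like cells, 7 became 3 at a mitochondrial limit of 5% and 0 without the batch term, and leaving out 1 library gave 0 to 8. For CASIN over aged in HSC-1-like cells, leaving out 1 library gave 0 to 1, the 1 being Hspa1b without aged 1. With no low-count filter LMPP-like cells gave 2 for aged over young, 4 for CASIN over aged and 3 for CASIN over young. In this and the other alternatives the shares of all genes called are not given beside the counts. The counts alone therefore do not set the members apart from other genes. The difference between HSC-1-like and LMPP-like cells went from 3 to 0 with DESeq2, 0 with thinned cells, 0 at a mitochondrial limit of 5% and 0 without the batch term, and leaving out 1 library gave 0 to 3. Leaving out 1 library gave 4 to 6 for batch 2 over batch 1 and 3 to 5 for the difference between batches. The cause of these changes was not tested.

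Whether the replicate numbers pair the samples was not settled, since the numbers follow the batch in part. Of 9 pairs with the same number, 7 had a correlation over 0.1, and the range was -0.605 to 0.886. The lowest, young 2 with aged 2, lay across batches. Within a batch, same-number pairs ran from 0.718 (young 1 with aged 1) to 0.886 (young 3 with CASIN 3). Pairs with different numbers ran there from 0.637 (young 3 with aged 2) to 0.742 (young 2 with aged 1). With a replicate block, 7 became 4 for CASIN over young in HSC-1-like cells and 6 became 2 for batch 2 over batch 1, and no other count of members changed. Of 630 fold changes of members in the 3 comparisons between groups over all LSK cells, 4 lost the call under an alternative, all of them Dnajb1 in aged over young, 12 became called and 614 stayed on their side of the threshold. In these 630, 0 called values and 17 uncalled values changed sign. Dnajb1 in aged over young was called in 17 of 21 alternatives in all LSK cells and in 21 of 22 in HSC-1-like cells. Over all genes, aged over young in all LSK cells gave 560 calls with edgeR and 1135 with DESeq2, CASIN over young 582 and 1269. In HSC-1-like cells CASIN over young gave 1694 calls, against 780 with thinned cells, 751 without young 1 and 18 without the batch term.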

Other observations

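Barcodes above the mitochondrial limit, with 1000 or more UMIs, numbered 128 to 383 in each library of batch 1 and 1760 to 3880 in each of batch 2. Hspa1a in them was above its level in the kept cells in aged 2 (35.2 against 25.5 CPM) and aged 3, and below it in young 3 (4.40 against 5.99 CPM) and CASIN 3 (9.33 against 9.86 CPM). In batch 2 they held less Dnajb1, at 21.7 to 65.1 CPM against 48.3 to 122 CPM in kept cells. This was not particular to Dnajb1. Hspa8 stood at 444 to 896 against 1099 to 1930 CPM, and Hsp90aa1, Dnaja1, Hsp90ab1, Hspd1 and Hspe1 were lower too in every library of batch 2, while Hsph1 was higher. Mitochondrial UMIs count in the total behind these CPM. In batch 1 Dnajb1 was higher in them in aged 1 (214 against 204 CPM) and CASIN 1 (207 against 167 CPM), and lower in young 1, young 2 and CASIN 2.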
